A study of Mus musculus with 14 samples.

Results

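The Serpina cluster on mouse chromosome 12 holds genes for serine protease inhibitors (serpins) that the liver secretes into plasma, and its chromatin accessibility was followed here in livers whose hepatocytes were made to lack matrin-3. The genes described are the α1-antitrypsin paralogs Serpina1a, Serpina1b, Serpina1c, Serpina1d and Serpina1e, the α1-antichymotrypsin-like paralogs Serpina3c, Serpina3k, Serpina3m and Serpina3n, and Serpina6, which encodes corticosteroid-binding globulin. An interval belonged to a gene when its midpoint lay inside the gene's RefSeq bounds (GRCm38.p6, the assembly that mm10 names), or otherwise when that gene was the nearest protein-coding gene within 50 kb. By this rule the 10 genes, of 21900 protein-coding genes in the annotation, held 141 of 88203 intervals on chow and 149 of 105801 on the high-fat diet. Serpina3c held no interval in either table. The genes were chosen by the differences between knockout and floxed animals in these same libraries, so the genotype differences below are a description of them and support nothing further. Of the intervals, 58 in the chow table and 68 in the high-fat table lay outside the bounds of their gene. The farthest from its gene lay 35.8 kb from Serpina1a on chow (chr12:103817263-103817763), with 4.88 ± 0.913 CPM (counts scaled to library size; SD, n = 3) in knockouts and 6.51 ± 1.25 in floxed animals, and no interval nearest to one of these genes lay beyond the 50 kb limit.

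The assay was ATAC-seq, in which a transposase cuts and tags open DNA, applied to liver nuclei (50 mg of frozen tissue per animal) of 14 females. Every animal carried floxed Matr3, the gene of the nuclear matrix protein matrin-3. Liver-specific knockouts (LKO) also carried Albumin-Cre, a recombinase transgene driven by a promoter active in hepatocytes. Which other liver cells keep the gene was not measured here. Littermates without the knockout are called floxed. From 7 weeks of age and for 16 weeks the mice ate chow (3 knockout, 3 floxed) or high-fat food, 60 kcal% of it fat (4 knockout, 4 floxed). The design text gives a 12 h fast before death for the high-fat mice and says nothing of fasting on chow.

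Serpins are suicide inhibitors: a protease cleaves an exposed loop of the serpin and is trapped on it in a covalent complex. α1-Antitrypsin, in humans encoded by SERPINA1, is the main plasma inhibitor of neutrophil elastase. In mice the gene has been duplicated into several copies, and the single human SERPINA3 corresponds to a group of Serpina3 paralogs that differ in the loop the protease cuts. Most of these genes are expressed by hepatocytes, and several respond to inflammation or to glucocorticoids. Serpina6 keeps the serpin fold but carries cortisol and corticosterone in place of inhibiting a protease.

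Promoter windows from 250 bases before to 50 after the annotated start were at hand from RefSeq (GRCm38.p6) for 7 of the 10 genes, with none for Serpina3k, Serpina3m and Serpina6. The windows of the 5 Serpina1 genes were 91.7% to 98.4% identical over 237 to 298 aligned bases in the 10 pairs. The stretches below are shown because they let a reader see how alike the copies are at the most open intervals of most of these genes. Each reads 5′ to 3′ on the strand of its gene, and the capitals mark positions at which the copies differ. All 5 stretches carried the same base at 98 of 105 positions, the first 59 of them without a break.
Serpina1a, chr12:103863575-103863679, minus strand: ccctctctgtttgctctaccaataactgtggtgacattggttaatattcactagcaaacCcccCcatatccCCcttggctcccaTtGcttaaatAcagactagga
Serpina1b, chr12:103738150-103738254, minus strand: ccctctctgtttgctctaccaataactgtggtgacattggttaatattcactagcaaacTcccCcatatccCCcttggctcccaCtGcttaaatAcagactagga
Serpina1c, chr12:103904912-103905016, minus strand: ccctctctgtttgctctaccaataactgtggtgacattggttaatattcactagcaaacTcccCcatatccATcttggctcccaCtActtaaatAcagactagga
Serpina1d, chr12:103773584-103773688, minus strand: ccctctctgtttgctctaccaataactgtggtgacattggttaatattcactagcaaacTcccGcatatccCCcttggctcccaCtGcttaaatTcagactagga
Serpina1e, chr12:103956910-103957014, minus strand: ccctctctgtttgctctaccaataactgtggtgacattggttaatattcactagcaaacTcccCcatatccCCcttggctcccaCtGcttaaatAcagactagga

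The stretch began 60 bases before the annotated start of Serpina1a, 65 before that of Serpina1b, 66 before that of Serpina1c, 55 before that of Serpina1d and 117 before that of Serpina1e. Motifs were searched on both strands and counted whether or not they overlapped another motif. TGTTCT, the core bound by the glucocorticoid receptor, was in 7 of the 7 windows, against 19.0% of 32851 promoter windows of the same length. The C/EBP motif TTGCNNAA was in 4 of 7 (10.8%), those of Serpina1a, Serpina1b, Serpina1d and Serpina1e, and TATAAA in 1 of 7 (13.6%), that of Serpina3c. The letters TGTTTAC for FOXA factors, CAAAGTC for HNF4 and TTCNNNGAA for STAT factors were in 0 of the 7, against 3.65%, 4.44% and 8.3% of all windows. A match of letters is not a bound site. The 7 windows include near-identical copies, so they are not 7 independent sequences, and these counts are no test of enrichment.

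The windows of Serpina3c and Serpina3n, a gene with no interval and a gene with an open start, were 93.5% identical (275 of 294 aligned bases). They are shown whole, with capitals for bases that had no identical partner in the alignment.
Serpina3c, chr12:104153823-104154122, minus strand: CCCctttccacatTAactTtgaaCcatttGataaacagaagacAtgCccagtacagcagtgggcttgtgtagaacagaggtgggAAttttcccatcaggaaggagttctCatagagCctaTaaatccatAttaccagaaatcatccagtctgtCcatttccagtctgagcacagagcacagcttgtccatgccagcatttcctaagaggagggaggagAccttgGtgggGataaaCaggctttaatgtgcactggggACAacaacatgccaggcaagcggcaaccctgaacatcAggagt
Serpina3n, chr12:104406458-104406757, plus strand: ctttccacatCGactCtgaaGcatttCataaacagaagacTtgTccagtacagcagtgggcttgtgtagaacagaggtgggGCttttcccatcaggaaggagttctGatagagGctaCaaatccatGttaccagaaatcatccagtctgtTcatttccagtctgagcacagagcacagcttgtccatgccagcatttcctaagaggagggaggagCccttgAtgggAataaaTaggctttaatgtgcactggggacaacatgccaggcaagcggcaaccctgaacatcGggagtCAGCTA

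The Serpina3n window lay wholly inside an interval in both tables. For Serpina3c the nearest interval was 44.9 kb away in each table and belonged to Serpina5. How the authors placed reads that map equally well to several copies is not stated in the labels. Reads of near-identical stretches may therefore be split between copies or missing, and a value near a Serpina1 start is uncertain as to which copy it came from. How alike the copies are beyond the promoter windows was not measured. Values inside or past the Serpina1 and Serpina3 genes may therefore carry the same uncertainty.

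Reads within intervals totalled 15.5 to 35.0 M (megareads) per library on chow and 7.59 to 10.4 M on the high-fat diet. The chow libraries numbered 2 stood apart: they were the shallowest (15.5 M in knockout 2 and 17.1 M in floxed 2, against 31.3 to 35.0 M), and had the lowest scores on the first principal component, which held 42.2% of the variance. Mean levels and counts of calls on chow are therefore also given without both of them. Matr3 itself held 7 intervals on each diet, with log2 fold changes of -0.40 to 0.03 on chow and -0.78 to 0.13 on the high-fat diet, none of them called by edgeR; accessibility there does not show whether the gene was deleted. Hepatocyte markers had intervals at all 10 of 10 genes on both diets. Their summed accessibility ran from 5448 to 6331 CPM in chow knockouts and from 5821 (floxed 2) to 8047 in chow floxed animals, and from 3511 to 5053 against 3578 to 6419 CPM on the high-fat diet. Their intervals lay mostly on the same side of 0 as those of the Serpina genes. On chow 250 of 349 had a log2 fold change below 0, with a median of -0.23 (50.6% of all intervals lay below 0 on each diet). Every knockout was below every floxed animal at 38 of the 349 (6.04% of all intervals). Of the 349 edgeR called 1, at Alb, higher in knockouts (0.00113% of all). Under high-fat feeding 219 of 376 were below 0 (median -0.07). Of the 376, 34 were called lower (0.303% of all intervals) and 1, at Alb, was called higher (0.448% of all). The 34 were 19 at Alb, the albumin gene, 10 at Ttr, the transthyretin gene, 4 at Apob and 1 at Tat. The part of this in the Serpina differences was not tested.

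The order of openness was first read in the floxed animals alone, as the mean CPM per 501 bp interval of each gene, which puts genes of different length on 1 scale. On chow the level was 26.5 ± 12.9 CPM at Serpina3k, 22.1 ± 4.94 at Serpina1c, 19.0 ± 2.48 at Serpina1b and 16.7 ± 4.48 at Serpina1a (SD, n = 3). It was 12.9 ± 1.27 at Serpina1d, 11.6 ± 1.53 at Serpina6, 10.3 ± 0.831 at Serpina3m, 8.65 ± 2.67 at Serpina1e and 8.61 ± 0.403 at Serpina3n. No gene differed from the next in this order by more than the larger of their SDs. In high-fat floxed animals the order began with Serpina1c (12.7 ± 2.72 CPM, n = 4), Serpina3k (12.7 ± 3.76) and Serpina1b (12.7 ± 2.44), followed by Serpina3m (11.9 ± 3.25), Serpina1a (10.5 ± 0.762), Serpina1d (9.92 ± 1.36) and Serpina6 (9.87 ± 1.91). Serpina1e (7.81 ± 1.11) and Serpina3n (7.30 ± 1.104) came last, and the step from Serpina6 to Serpina1e was the only one wider than both SDs. The diets sit in tables that were normalised separately, so levels were not tested between them.

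**Figure D1:**
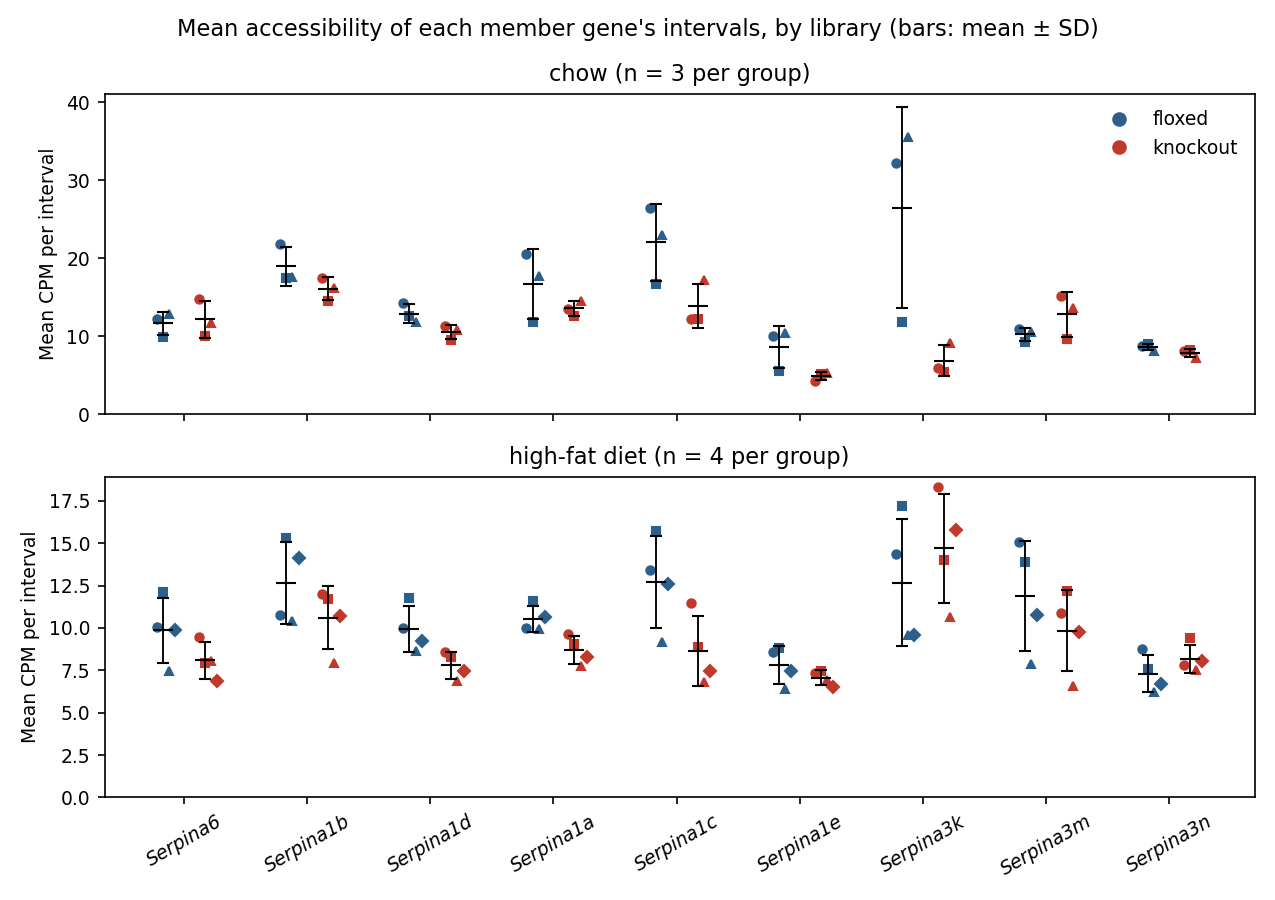
Mean CPM per interval (vertical axes, from 0) of the 9 genes with intervals, ordered by position on chromosome 12, in floxed (blue) and knockout (red) livers, with chow above and the high-fat diet under it. Symbols are libraries and bars the mean ± SD; on chow the 3 knockouts sit between 5.46 and 9.11 CPM at Serpina3k, below the 3 floxed animals (11.8 to 35.5 CPM), while on the high-fat diet the groups overlap there.

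Serpina3k, also known as contrapsin, encodes a plasma inhibitor of trypsin-like proteases and had the widest difference between genotypes on chow. Its mean accessibility was 5.94, 5.46 and 9.11 CPM per interval in knockouts 1, 2 and 3, and 32.2, 11.8 and 35.5 CPM in floxed animals 1, 2 and 3. The groups did not overlap, floxed 2 lay nearest to the knockouts, and the floxed mean was 3.88 times the knockout mean (4.50 times without both libraries numbered 2). All 15 intervals of the gene had a log2 fold change (knockout over floxed) below 0, with a median of -2.30.

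The difference was not even along the gene, whose bounds are chr12:104338486-104345739. The annotation at hand gives no strand for Serpina3k, so positions are counted from its lower coordinate. At the interval 1.45 kb below that bound (chr12:104336786-104337286) knockouts had 23.9, 20.3 and 28.2 CPM and floxed animals 26.3, 18.6 and 29.6 CPM. The groups overlapped there, with a log2 fold change of -0.04. At the lower bound itself (chr12:104338299-104338799) the values were 13.5, 9.60 and 17.8 CPM against 30.6, 15.6 and 33.2 CPM, a log2 fold change of -0.95 with groups that still overlapped. Farther into the gene, at chr12:104343819-104344319, they were 1.27, 1.51 and 3.77 CPM in knockouts and 28.3, 7.68 and 26.6 CPM in floxed animals. Every knockout was below every floxed animal at this interval, and its log2 fold change of -3.22 (SE 0.50) was the lowest of the gene.

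The wide difference went on past the upper bound. At chr12:104346204-104346704 the knockouts had 3.05, 3.07 and 10.4 CPM and the floxed animals 67.6, 15.5 and 72.1 CPM, a log2 fold change of -3.20 (SE 0.58). The most open interval of the gene, chr12:104346994-104347494, held 5.13, 5.08 and 13.9 CPM in knockouts and 66.9, 15.0 and 85.8 CPM in floxed animals (log2 fold change -2.78, SE 0.56). Floxed 2 was close to knockout 3 at both. At the last assigned interval, 13.5 kb from the lower bound (chr12:104351773-104352273), the groups overlapped again, with a log2 fold change of -0.18. Over the 14 intervals within 3 kb of the gene, Spearman's rank correlation between distance from the lower bound and log2 fold change was -0.84; these intervals share their libraries and are not independent.

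**Figure D2:**
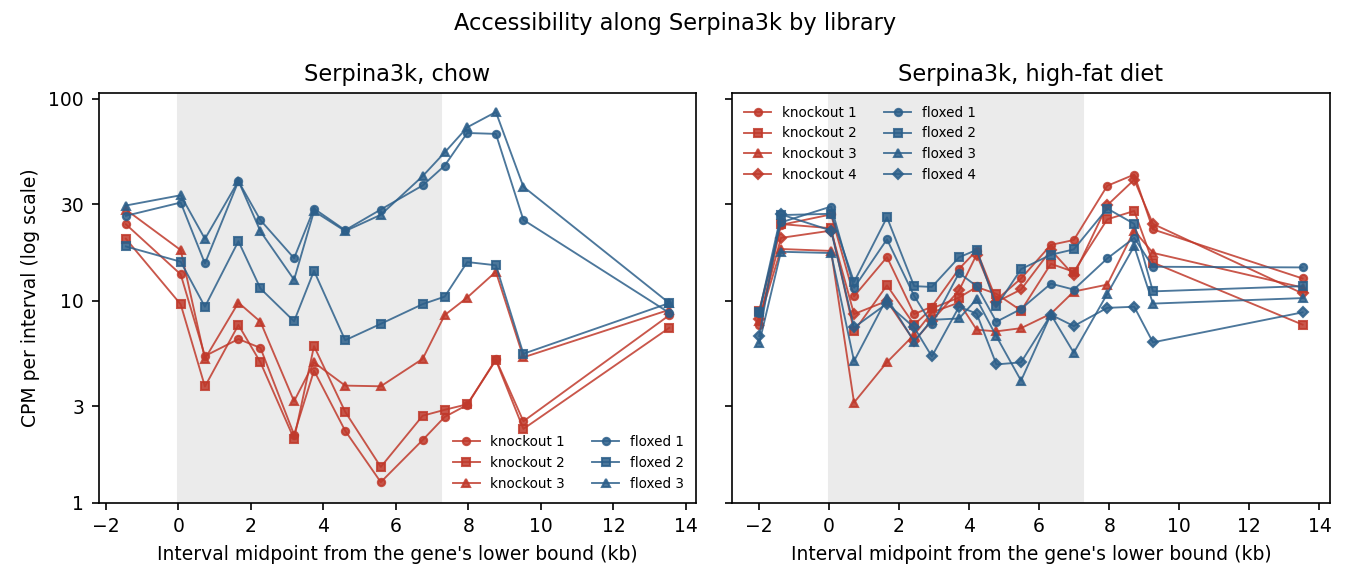
CPM per 501 bp interval (log scale) against the distance of the interval's midpoint from the lower bound of Serpina3k, with 1 line per library, red for knockout and blue for floxed, and the gene shaded. On chow the lines meet 1.45 kb below the gene and part within it, down to 1.27 CPM in knockout 1 against 28.3 CPM in floxed 1. On the high-fat diet they lie closer together than on chow, but past the upper bound the knockouts are mostly higher and reach 42.1 CPM.

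Over the whole chow table, edgeR's quasi-likelihood test with Benjamini-Hochberg adjustment called 0.0227% of intervals (0.0215% lower and 0.00113% higher in knockouts). Among the 141 Serpina intervals it called 3, all lower in knockouts and all in Serpina3k. They fell by 2.04 on the log2 scale (SE 0.26, adjusted p = 0.048) at chr12:104339892-104340392, by 2.30 (SE 0.28, 0.041) at chr12:104341427-104341927 and by 2.21 (SE 0.26, 0.0383) at chr12:104341977-104342477. Intervals with larger fold changes nearer the upper bound were not called: their standard errors were 0.41 to 0.58, and floxed 2 was far below the other floxed animals there. With the column number as a block, 13 intervals were called, 12 in Serpina3k and 1 in Serpina1c, against 0.143% of all intervals. Without both libraries numbered 2 the Serpina count was 18, with 12 in Serpina3k and 6 in Serpina1e, when 333 of all 88203 intervals were called. Without floxed 2 alone it was 23, when 604 of all were called, against 20 in the main fit. Without knockout 3 the Serpina count was 2 (43 over the whole table). It was 0 without knockout 2 or floxed 3 (7 each over the whole table). It was also 0 without knockout 1 or floxed 1 (0 over the whole table). In these fits edgeR's adjusted p was up to 0.255 for the 3 intervals.

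In all, 40 of the 141 intervals had every knockout below every floxed animal, against 6.04% of all chow intervals, and 1 had every knockout above, against 5.63%. Of the 40, 12 were in Serpina3k, 10 in Serpina1c, 6 in Serpina1e and 4 each in Serpina1a, Serpina1b and Serpina1d. A log2 fold change below 0 was seen at 122 of the 141, against 50.6% of all intervals, and the median was -0.36 against -0.0032 over the whole table. Under high-fat feeding 7 of 149 intervals had every knockout below (2.5% of all) and 2 had every knockout above (2.8%). There the log2 fold change was below 0 at 116 of 149 (50.6% of all), with a median of -0.27 against -0.0039 over the whole table. Each interval entered through a call in 1 genotype. For 113 of the 141 on chow this was floxed (44192 of all 88203), and for 103 of the 149 on the high-fat diet (53410 of all 105801). Neighbouring intervals also share libraries, so these counts are not independent of how the intervals entered. The size of that part was not tested. An unadjusted edgeR p under 0.05 was seen at 61 of the 141 Serpina intervals on chow (6.77% of all intervals) and at 45 of the 149 on the high-fat diet (10.2% of all).

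Without both libraries numbered 2 the chow median over the Serpina intervals was -0.41. The floxed mean level was then 1.68 times the knockout mean at Serpina1c (1.59 times with all libraries), 1.36 times at Serpina1a (1.23), 1.18 times at Serpina1d (1.22) and 1.17 times at Serpina1b (1.18). It was 1.104 times at Serpina3n (1.097), 0.945 times at Serpina6 (0.958) and 0.743 times at Serpina3m (0.799). No gene crossed to the other side of 1 when these libraries were left out.

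**Figure D3:**
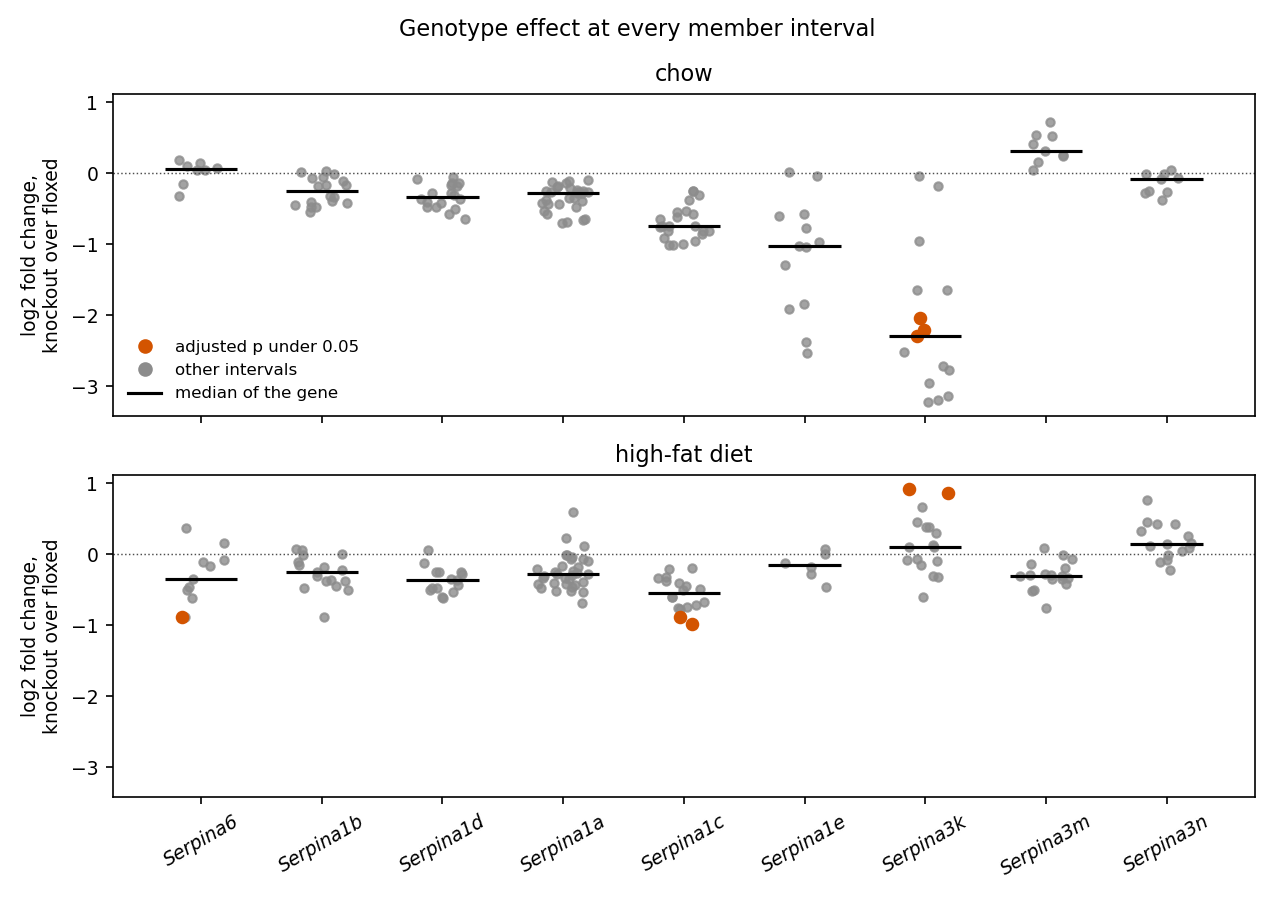
Log2 fold change of knockout over floxed at each interval of the 9 genes, ordered by position on chromosome 12, for chow (top) and the high-fat diet (bottom). Points are intervals (orange where the adjusted p over the whole table was under 0.05) and black lines are medians, which on chow run from -2.30 at Serpina3k to 0.32 at Serpina3m.

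The α1-antitrypsin paralogs had smaller differences, with medians below 0 on both diets. Serpina1c, the second widest among them on chow, had mean levels of 12.3, 12.2 and 17.2 CPM in knockouts 1, 2 and 3 and of 26.5, 16.8 and 22.9 CPM in floxed animals 1, 2 and 3. Knockout 3 and floxed 2 overlapped. The log2 fold change was below 0 at 22 of 22 intervals, with a median of -0.74. It was closest to 0 at the start (-0.24 at chr12:103904634-103905134, the most open interval of the gene at 40.8 CPM over all libraries) and lowest 7.56 kb into the gene, at -1.01. No interval of Serpina1c passed edgeR's test on chow, where its lowest adjusted p was 0.316. Of its intervals limma voom called 9 (677 of all 88203) and DESeq2 6 (544 of all).

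The mean level of Serpina1c on the high-fat diet was 11.5, 8.86, 6.78 and 7.47 CPM in knockouts 1 to 4 and 13.4, 15.7, 9.17 and 12.6 CPM in floxed animals 1 to 4. The groups overlapped between knockout 1 and floxed 3. All 18 intervals had a log2 fold change below 0, with a median of -0.55. Over the whole high-fat table edgeR called 0.751% of intervals (0.303% lower and 0.448% higher in knockouts), and among the 149 Serpina intervals it called 5, 3 lower and 2 higher. Of the 3 lower, 2 were in Serpina1c. At chr12:103894943-103895443, at the far end of the gene, knockouts had 7.51, 7.28, 3.40 and 3.03 CPM and floxed animals 10.7, 10.8, 7.92 and 12.9 CPM, with no overlap; accessibility fell by 0.98 (SE 0.24, edgeR adjusted p = 0.0445). At chr12:103900473-103900973 knockouts had 8.37, 6.95, 5.35 and 6.19 CPM and floxed animals 16.8, 13.8, 8.92 and 10.4 CPM, again with no overlap; accessibility fell by 0.89 (SE 0.20, 0.0281). Over the alternatives the adjusted p of these intervals reached 0.227 without knockout 4 and 0.129 without floxed 1.

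Serpina1e was less open than the other α1-antitrypsin genes on chow. Its mean level was 4.24, 5.13 and 5.30 CPM in knockouts 1, 2 and 3 and 9.98, 5.58 and 10.4 CPM in floxed animals 1, 2 and 3, so that floxed 2 was close to the knockouts and floxed 1 and floxed 3 were above them. Without both libraries numbered 2 the floxed mean was 2.14 times the knockout mean, against 1.77 times with them. The log2 fold change was -0.60 at the start (chr12:103956683-103957183) and -2.54 at chr12:103945765-103946265, 10.9 kb past the start. At that interval knockouts had 0.779, 2.38 and 1.68 CPM and floxed animals 11.8, 1.88 and 13.0 CPM. Floxed 2 lay among the knockouts, and the lowest edgeR adjusted p of the gene was 0.27. The rank correlation between distance from the start and log2 fold change was -0.85 over 10 intervals within 3 kb of the gene. At the other Serpina1 genes this correlation was weaker. It ran from -0.40 (Serpina1c) to 0.12 (Serpina1b) on chow, and from -0.13 (Serpina1c) to 0.20 (Serpina1a) on the high-fat diet. In the high-fat table Serpina1e had 6 intervals, a median log2 fold change of -0.15 and overlapping levels, 6.52 to 7.48 CPM in knockouts and 6.41 to 8.79 CPM in floxed animals.

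**Figure D4:**
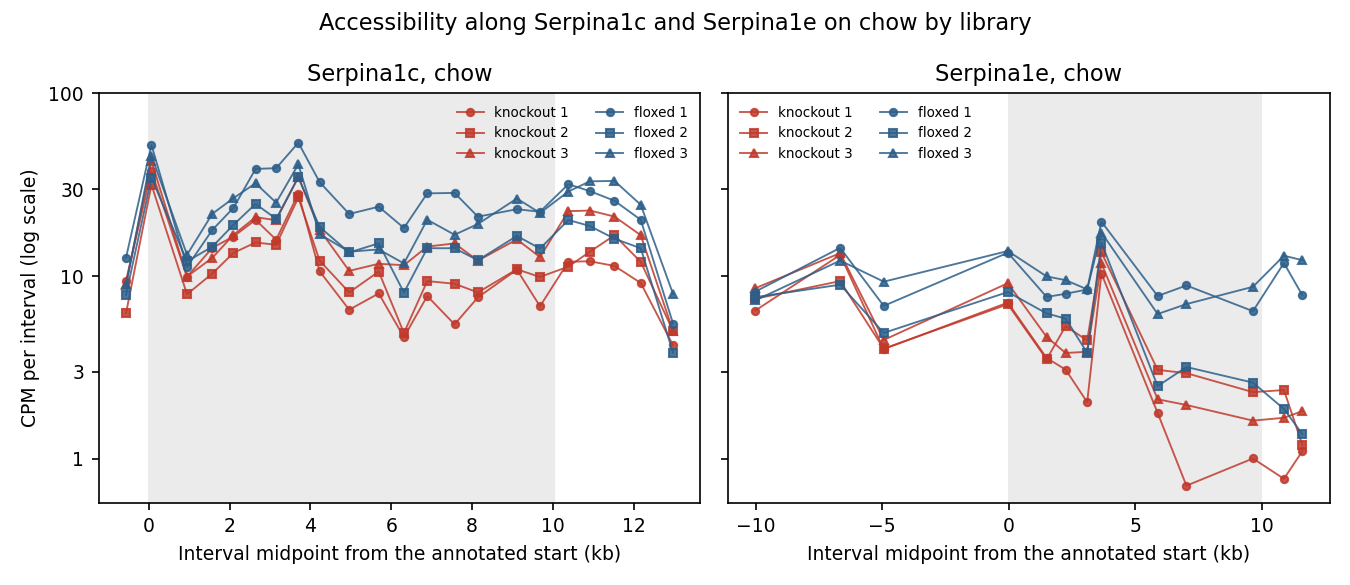
CPM per 501 bp interval (log scale) on chow against the distance of the interval's midpoint from the annotated start of Serpina1c and Serpina1e, with 1 line per library (red knockout, blue floxed) and the genes shaded. At Serpina1c all lines come close at the start, between 31.7 and 52.4 CPM, and at Serpina1e floxed 2 stays near the knockouts, down to 1.88 CPM past the far end, where floxed 1 and floxed 3 have 11.8 and 13.0 CPM.

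Serpina1a, Serpina1b and Serpina1d had median log2 fold changes of -0.28, -0.25 and -0.33 on chow and -0.27, -0.25 and -0.36 on the high-fat diet, and no interval of theirs was called by edgeR on either diet. Levels of Serpina1d did not overlap on either diet: knockouts had 9.50 to 11.3 CPM and floxed animals 11.8 to 14.3 CPM on chow, and 6.87 to 8.56 against 8.65 to 11.8 CPM on the high-fat diet. Serpina1a did not overlap on the high-fat diet (7.78 to 9.64 against 9.97 to 11.6 CPM) but did on chow, where floxed 2 had 11.8 CPM and the knockouts 12.6 to 14.6 CPM. Its level also averaged a run of intervals far below the gene, 25152 to 35782 bp from it on chow and 19731 to 34760 bp on the high-fat diet. Inside the gene lay 13 of its 29 intervals on chow and 14 of 33 on the high-fat diet. Serpina1b overlapped on both diets. For Serpina1a, Serpina1b, Serpina1c and Serpina1d the interval at the annotated start was the most open of the gene on both diets, at 35.3 to 55.0 CPM over all libraries on chow. At these starts the chow log2 fold changes were small: -0.10 at Serpina1a, 0.03 at Serpina1b, -0.24 at Serpina1c and -0.13 at Serpina1d. Those of Serpina1a and Serpina1b changed sign when single libraries were left out.

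Serpina3m, a paralog next to Serpina3k, lay on the other side of 0 on chow. Its mean level was 15.2, 9.62 and 13.7 CPM in knockouts 1, 2 and 3 and 10.9, 9.30 and 10.6 CPM in floxed animals 1, 2 and 3, with knockout 2 among the floxed animals. All 9 intervals had a log2 fold change above 0, with a median of 0.32, and none was called (lowest edgeR adjusted p 0.562). The largest, 0.73, was at chr12:104396337-104396837, where knockouts had 16.5, 8.34 and 10.99 CPM and floxed animals 7.32, 6.202 and 8.11 CPM, the only Serpina interval on chow with every knockout above. In high-fat animals 16 of 17 intervals were below 0, with a median of -0.30, and levels overlapped, 6.56 to 12.2 CPM in knockouts against 7.87 to 15.1 CPM in floxed animals.

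Serpina3n, an acute-phase inhibitor that in mice inhibits granzyme B, had overlapping genotypes on chow. Its start interval (chr12:104406416-104406916) had 16.8, 15.2 and 15.6 CPM in knockouts and 17.1, 12.8 and 17.8 CPM in floxed animals, and the median over its 9 intervals was -0.08. Under high-fat feeding the log2 fold change ran from -0.22 before the start to 0.77 just past the far end of the gene, with a rank correlation of 0.96 over 10 intervals within 3 kb. At that far interval (chr12:104415315-104415815) knockouts had 8.69, 13.4, 8.36 and 10.6 CPM and floxed animals 7.87, 4.68, 7.54 and 4.15 CPM. The groups did not overlap, but edgeR did not call it (adjusted p = 0.106).

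Serpina6, the corticosteroid carrier at the lower end of the cluster, had a median of 0.06 over 8 intervals on chow and of -0.35 over 11 on the high-fat diet. Its most open interval on chow, chr12:103655593-103656093, had 30.9, 23.3 and 24.6 CPM in knockouts and 26.9, 23.1 and 24.98 CPM in floxed animals, which overlapped. On the high-fat diet 1 interval was called, chr12:103656136-103656636 inside the gene. It had 6.01, 5.07, 3.66 and 4.67 CPM in knockouts and 8.77, 11.5, 7.54 and 8.07 CPM in floxed animals, without overlap, and fell by 0.88 (SE 0.21, edgeR adjusted p = 0.0403). Its adjusted p reached 0.224 without floxed 2.

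On the high-fat diet the genotypes overlapped at Serpina3k. Its mean level was 18.3, 14.03, 10.7 and 15.8 CPM in knockouts 1 to 4 and 14.4, 17.2, 9.59 and 9.57 CPM in floxed animals 1 to 4, with floxed 2 among the highest. The log2 fold change went from -0.60 (SE 0.26) 1.66 kb into the gene to 0.92 past the upper bound, and the rank correlation with distance from the lower bound was 0.86 over 16 intervals. Both intervals called higher on this diet were there. At chr12:104346949-104347449 knockouts had 42.1, 27.8, 22.2 and 39.7 CPM and floxed animals 20.5, 24.0, 18.6 and 9.33 CPM, with overlap at knockout 3; accessibility rose by 0.86 (SE 0.19, edgeR adjusted p = 0.0212). At chr12:104347484-104347984 knockouts had 22.5, 15.4, 17.2 and 24.0 CPM and floxed animals 14.7, 11.1, 9.68 and 6.22 CPM, without overlap; accessibility rose by 0.92 (SE 0.19, 0.0127). DESeq2 gave the first an adjusted p of 0.337.

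The 5 Serpina calls on the high-fat diet moved with single libraries. Calls over the whole table moved as well, from 304 without knockout 4 to 1189 without floxed 3, against 795 in the main fit. The Serpina calls were 0 without knockout 4, 1 without floxed 4, 2 without knockout 3 or floxed 1 and 3 without knockout 2 or floxed 2. They were 9 without knockout 1 and 13 without floxed 3. Without floxed 3 the 13 were 6 in Serpina1c, 2 each in Serpina1b, Serpina3k and Serpina6 and 1 in Serpina3m.

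Whether the genotype effect differed between diets was tested on intervals of both tables matched 1 to 1 by at least 50% overlap, in a fit of all 14 libraries. The test reuses the genotype differences by which the genes were chosen, so its p-values at Serpina intervals are a description only. Of 73945 matched intervals 0.183% were called, 0.134% with the high-fat effect above the chow effect. Among 102 matched Serpina intervals 6 were called, all in Serpina3k and all with the high-fat effect above the chow effect. From the lower to the higher coordinate, the high-fat minus chow log2 differences were 2.17 (SE 0.34), 2.94 (SE 0.44), 3.55 (SE 0.57), 3.62 (SE 0.55), 3.89 (SE 0.63) and 3.66 (SE 0.56), with edgeR adjusted p between 0.00277 and 0.00408. They start at chr12:104341977-104342477 and end at chr12:104346994-104347494 in the chow table. The other 6 matched intervals of Serpina3k, toward the lower bound and at the far outer interval, had differences of -0.07 to 1.46 and did not pass. There were 9 Serpina calls without floxed 2 on chow, when 370 of all matched intervals were called, against 135 in the main fit. There were 6 without any other single library. At 80% overlap 4 of 9 Serpina3k matches were called, against 115 of all 68050. The median difference was -0.63 over 7 matches of Serpina3m, 0.07 over 18 of Serpina1c and 0.41 over 5 of Serpina1e, with lowest adjusted p of 0.359, 0.659 and 0.64. Diet cannot be told apart from the table, its depth or the fast, since the diets share no table.

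**Figure D5:**
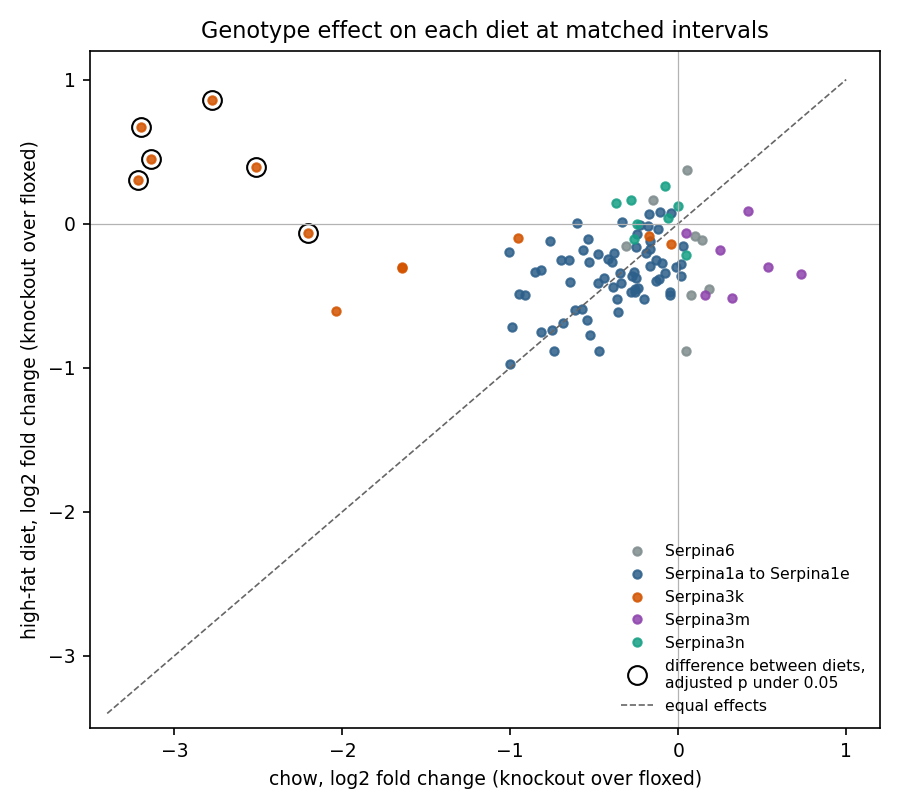
Log2 fold change of knockout over floxed at 102 matched Serpina intervals, on chow (horizontal) against the high-fat diet (vertical), with equal scales, the diagonal of equal effects and circles around intervals whose effects differed between diets (adjusted p under 0.05). The 6 circled intervals are all of Serpina3k, at -3.22 to -2.21 on chow and -0.06 to 0.86 on the high-fat diet, while most Serpina1 intervals lie below 0 on both diets.

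The rest of the cluster and its neighbourhood were read from lists, whose counts at an unadjusted p under 0.05 stand against 6.77% of all chow intervals and 10.2% of all high-fat intervals. Of 13 other Serpina genes of the cluster, among them Serpina10 and Serpina12, 8 had 41 intervals on chow and 9 had 38 on the high-fat diet; edgeR called 0 on each, with 2 and 5 at an unadjusted p under 0.05 and medians of -0.14 and 0.03. The 10 flanking genes, among them Dicer1 and Ifi27, had 0 calls over 97 and 120 intervals (5 and 12 at an unadjusted p under 0.05, medians -0.09 and -0.04). Of their 97 chow intervals 68 had a log2 fold change below 0 (50.6% of all). Every knockout was below every floxed animal at 12 of the 97 (6.04% of all) and above at 0 (5.63%). For the other Serpina genes of the cluster, 29 of 41 chow intervals were below 0, and every knockout was below at 3. The 14 serpins elsewhere in the genome, such as Serpinc1, the gene of antithrombin, had 0 calls over 65 and 83 intervals (3 and 6 at an unadjusted p under 0.05; medians 0.07 and -0.06). Of 13 genes for proteases that these families inhibit, 10 had intervals, with 0 calls over 84 and 98 (7 and 6 at an unadjusted p under 0.05; medians -0.04 and 0.01).

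Regulators of hepatic serpin genes had 0 calls by edgeR over 378 intervals on chow, with a median of -0.05. An unadjusted p under 0.05 was seen at 93 of them, against 6.77% of all intervals, and every knockout was below every floxed animal at 59, against 6.04%. The genes named here were chosen after their values were seen. The 52 intervals of Onecut1, a liver transcription factor, had a median log2 fold change of -1.81. At the one with the lowest p (chr9:74869873-74870373) knockouts had 0.893 ± 0.614 CPM and floxed animals 10.01 ± 6.93 (SD, n = 3). The log2 fold change there was -3.41 (SE 0.59, edgeR adjusted p = 0.125). The 55 intervals of Foxa2, a pioneer factor of liver genes, had a median of -0.61. Its lowest p was at chr2:148037769-148038269, with 6.11 ± 1.02 CPM in knockouts and 14.3 ± 2.15 in floxed animals and a log2 fold change of -1.22 (SE 0.19, edgeR adjusted p = 0.0958). In the high-fat table the medians were -0.06 over 24 intervals of Onecut1 and -0.19 over 24 of Foxa2. In the fit of both diets edgeR called 0 of 18 matched intervals of Onecut1 (12 at an unadjusted p under 0.05, median high-fat minus chow difference 0.95, lowest adjusted p 0.123) and 0 of 22 of Foxa2 (3, 0.20 and 0.37).

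Over all regulators 58 of 395 high-fat intervals had an unadjusted p under 0.05, against 10.2% of all, and the median was -0.01. Of the 395, 3 were called, a share close to the 0.751% of the whole table; all were higher and at Il1r1, the receptor of interleukin 1. The one with the lowest p, chr1:40175157-40175657, had 13.4 ± 2.90 CPM in knockouts and 6.26 ± 1.52 in floxed animals (SD, n = 4), and rose by 1.09 (SE 0.20, edgeR adjusted p = 0.00488).

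Markers of other liver cells had 0 calls by edgeR on either diet. At an unadjusted edgeR p under 0.05 there were 10 of 91 intervals on chow (6.77% of all) and 9 of 124 on the high-fat diet (10.2% of all). Lymphocyte markers, of which 3 of 8 had intervals on chow (Cd8a and Nkg7 were among those with none), summed to 82.2 to 100.5 CPM in chow knockouts and 69.0 to 75.2 CPM in chow floxed animals, without overlap. Cholangiocyte markers, of which 3 of 6 had intervals (Krt19, Krt7 and Cftr had none), did not overlap on the high-fat diet, at 59.6 to 65.4 against 52.9 to 59.4 CPM. Kupffer, sinusoidal endothelial, stellate and neutrophil markers overlapped between genotypes on both diets. In whole liver, fewer cells of a type and less open chromatin per cell cannot be told apart, and the part of these markers in the Serpina differences was not tested.

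Among 8640 protein-coding genes with at least 3 intervals in each table, the 5 outside the cluster whose summed accessibility ran most like that of Serpina3k over 6 chow and 8 high-fat libraries were Urad, Ctif, Errfi1, Clic4 and Clip1. Pearson's r on the log2 scale was 0.98 over the chow libraries and 0.90 over the high-fat libraries for Urad, and 0.92 and 0.88 for Errfi1, the gene of a feedback inhibitor of the EGF receptor. The libraries of a table share its normalisation and, on chow, a split by genotype. Within the cluster r was, in the same order, 0.97 and 0.43 for Serpina1e, 0.96 and 0.30 for Serpina1c, and -0.30 and 0.58 for Serpina3m.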

How the data were processed

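ATAC-seq was done on livers of 14 mice. The authors deposited 1 table per diet of whole-number read counts per interval and library, all intervals 501 bp wide, in mm10 coordinates per the labels. The submitters' processing notes list Bowtie2 2.4.2, Trim Galore 0.6.7, HOMER 4.11, bedtools, MACS2 2.2.7.1, ChIPseeker and DESeq2 but give no roles. Handling of duplicates, multi-mapping reads and the transposase offset was not stated in the labels. High-fat columns match single samples; chow columns name only the genotype and a number, so a chow column stands for its genotype only.

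Each table was fitted whole with edgeR 4.0.16 in R 4.3.3 (TMM, filterByExpr, which removed no interval, quasi-likelihood test of genotype, Benjamini-Hochberg over all intervals at 0.05). CPM used TMM library sizes and SEs come from the fit. The p-values set a genotype difference against the spread between animals, which the fit estimates with the help of all intervals. DESeq2 1.42.0, limma 3.58.1 (voom), RLE size factors, other filters, overlaps, distances and motif windows, and leaving out libraries were alternatives. The scripts were tested on simulated data. Deviations of same-numbered chow columns had r of 0.184, 0.533 and 0.189, and only the columns numbered 2 were each other's closest match. A pairing of chow animals by number is therefore not established. Members and gene lists were chosen with earlier results of these data known. For each gene, the text names the most open interval, the called intervals, the one nearest the start, and, chosen after their values were seen, further intervals that show the profile of a gene. Some planned results are not reported here.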

Additional observations from a re-analysis of the deposited data

Results flagged for a closer look

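The genotype effect differed between diets, by the edgeR test of that difference over all matched intervals, at 6 intervals of Serpina3k. The high-fat minus chow log2 difference was 2.17 at the interval that starts at 104341977 on chromosome 12, where the effect was -2.21 on chow and -0.06 under high-fat feeding. It was 2.94 at 104342837, 3.55 at 104343819, 3.62 at 104344974, 3.89 at 104346204 and 3.66 at 104346994. On chow every knockout was below every floxed animal at all 6, and on the high-fat diet the groups overlapped at all 6. The highest edgeR adjusted p over the alternatives run was 0.0211, at 104346204 without floxed 4 of the high-fat table. Each of the 6 passed in every alternative in which it was matched. The genes were chosen by genotype differences in these same libraries, so the test and its alternatives describe the 6 intervals and support nothing further. In no high-fat group of 4 libraries did 1 library stand apart from the other values by Dixon's criterion, among 48 groups examined.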

How the results depend on the processing

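On chow, the 3 Serpina calls of edgeR became 18 with DESeq2, 28 with limma voom, 13 with the replicate block and 18 without both libraries numbered 2, all lower in knockouts and including the same 3. Calls over all 88203 chow intervals went from 20 to 544, 677, 126 and 333 in the same order. Leaving out single libraries gave 0 to 23 Serpina calls and 0 to 604 over the whole table. On the high-fat diet the 5 calls became 11 with the replicate block, whose numbers do not pair the animals by the check of deviations (r of -0.0105 to 0.177), and leaving out single libraries gave 0 to 13. The 6 differences between diets became 10 with the replicate block and 6 to 9 when single libraries were left out. Over all matched intervals 135 calls became 301 and 82 to 370 in the same order. The cause of these shifts was not tested. RLE size factors left the counts of calls at 3 and 5. Both other filters kept every interval, so they only repeat the main fit. Every called interval lay inside its gene or within 10 kb of it, so assignment within 10 kb could not change these counts. The motif counts were equal in the window ending at the start, except C/EBP (3 of 7). Of the values of named intervals under the alternatives, 451 kept direction and side of the threshold, 35 lost their call, 8 gained one and 18 changed sign, at 6 uncalled start or most open intervals. Leaving out single libraries on chow, log2 fold changes ran from -0.061 to 0.15 at Serpina6 (interval starting at 103655593), -0.050 to 0.12 at Serpina1b (103738043), -0.34 to 0.074 at Serpina1a (103863477) and -0.13 to 0.087 at Serpina3n (104406416; 0.0065 with the replicate block). On the high-fat diet they ran from -0.081 to 0.13 at Serpina1e (103956730; -0.0038 with limma voom) and -0.041 to 0.25 at Serpina3n (104406390). Depth was 7.59 to 10.4 M on the high-fat diet against 15.5 to 35.0 M on chow; what it limits was not compared between tables.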

Other observations

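Each interval carries the genotype it was called in. On chow 113 of the 141 Serpina intervals were named for floxed calls, against 44192 of all 88203. All 15 intervals of Serpina3k, 13 of Serpina1e and 22 of Serpina1c were named for floxed calls, and all 9 of Serpina3m for knockout calls. On the high-fat diet 103 of 149 were named for floxed calls, against 53410 of all 105801, 11 of 17 at Serpina3k and 14 of 17 at Serpina3m.

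The number of intervals per gene differed between tables as well. Serpina1e had 13 intervals on chow, 7 of them inside the gene, and 6 on the high-fat diet, 2 of them inside. Serpina3m had 9 on chow, 3 inside, and 17 on the high-fat diet, 8 inside. Serpina3k had 15 and 17, with 9 and 11 inside. The tables were called separately and differ in depth, so these counts were not compared by a test.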
